A study of Mus musculus with 8 samples.

Results

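Interferon gamma, its receptor and the proteins that carry its signal were followed in CT26 tumors through 9 genes: Ifng, Ifngr1, Ifngr2, Jak1, Jak2, Irf1, Socs1, Il12b and Il12rb2. Every probe whose gene name on the array was one of these was taken, which gave 11 of the 56567 probes kept (Jak2 and Irf1 had 2 each). All 11 were among the 31912 probes, of 21616 gene names, that passed the filter on dim probes and were tested. The tumors grew from 500000 CT26 cells, a mouse line of colon carcinoma origin, placed under the skin of the flank. Once tumors had grown, mice received vehicle, or TP-16 (BY001 in the labels), 75 mg/kg daily by mouth, or anti-PD-1 antibody at 50 µg per mouse into the peritoneum 2 times a week, or both agents together (the combination), for 2 weeks. The labels give neither age nor sex of the hosts, and the study's methods name female BALB/c mice aged 6 to 10 weeks. TP-16 is an antagonist of the prostaglandin E2 receptor EP4, while PD-1 restrains T cells until an antibody covers it. RNA of whole fresh tumors was measured on 8 Agilent arrays with 1 dye, 2 arrays per group. The series calls them independent biological replicates, without saying whether a sample was 1 tumor or a pool.

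Interferon gamma is a cytokine made mainly by activated T cells and natural killer cells. It binds IFNGR1, which works with IFNGR2, and the kinases JAK1 and JAK2 on these chains pass the signal on. It reaches GAS elements in promoters and switches on genes such as Irf1, whose product in turn binds ISRE elements, while SOCS1 holds the kinases back as negative feedback. IL-12 from dendritic cells and macrophages acts on T cells and natural killer cells to raise interferon gamma. In tumors the cytokine is known for raising antigen presentation and the chemokines that draw T cells, and for inducing PD-L1.

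The promoter windows of these genes were searched for the element letters that this pathway reads. The windows, from RefSeq in the GRCm38.p6 build, run from 250 bases before to 50 after each gene start, and all 9 genes had at least 1. The letters searched were TTCNNNGAA for GAS, which reads the same on both strands, and for ISRE, on both strands, GAAA followed by any 2 bases and a further GAAA. Of all 32851 windows, 8.3% held the first and 3.44% the second. The first was found in Ifng, Irf1 and Il12rb2, and the second in Socs1, where 2 matches overlapped. The stretches below show those matches in capitals, 5′ to 3′ on the strand of the gene, with flanking bases that all lie before the gene start.
Irf1 (chr11:53769879-53769977, plus strand): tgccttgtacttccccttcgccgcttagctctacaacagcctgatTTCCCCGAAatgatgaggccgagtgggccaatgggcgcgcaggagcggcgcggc
Socs1 (chr16:10785559-10785664, minus strand): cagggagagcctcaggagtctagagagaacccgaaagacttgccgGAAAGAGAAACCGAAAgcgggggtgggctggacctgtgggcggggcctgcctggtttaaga
Il12rb2 (chr6:67376258-67376356, minus strand): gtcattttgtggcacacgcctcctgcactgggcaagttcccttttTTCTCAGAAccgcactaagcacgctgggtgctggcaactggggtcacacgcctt
Ifng (chr10:118440796-118440850, plus strand): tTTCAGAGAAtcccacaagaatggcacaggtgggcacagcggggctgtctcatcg
Counted from the gene start, with -1 as the base just before it, the match began at -90 in Irf1, at -83 and -77 in Socs1, at -123 in Il12rb2 and at -249 in Ifng, the edge of the window. Irf1 had 2 windows, and the other one held neither motif. The windows of Ifngr1, Ifngr2, Jak1, Jak2 and Il12b held neither, which says only that these letters are not in these windows. A match is a run of letters and was not tested as a binding site.

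Values are log2 intensities relative to the 75th percentile of the array. The 8 arrays shared 1 slide and 1 scan. Row 1 of the slide held vehicle and TP-16 and row 2 the rest, while columns 3 and 4 held TP-16 and the combination. Antibody and slide row therefore cannot be told apart, nor TP-16 and slide column. Between 51.4% and 59.7% of the probes of an array were well above background. The tumor label was set against 8 genes of epithelial and carcinoma cells: Krt18 was measured on all arrays, whereas Epcam and Vil1 did not pass the filter. The 2 vehicle arrays lay farther apart than those of any other group, with a standard deviation of the difference over tested probes of 0.68, against 0.42 to 0.53. The median log2 difference of all tested probes from vehicle was -0.20 with the combination, -0.12 with TP-16 and -0.097 with the antibody, and a value for a gene is best read against that shift.

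The ligand moved farthest. Ifng (NM_008337, probe at chr10:117882841-117882900 in mm9) was -3.58 and -0.49 in vehicle, 0.75 and 0.00 with TP-16, 1.09 and 0.70 with anti-PD-1, and 1.67 and 2.38 with the combination. Both vehicle arrays were the lowest and both combination arrays the highest of the 8, while the arrays of the single agents overlapped each other. In scanner units, the same probe read 31 and 269 in vehicle and 1930 and 3830 with the combination. Those readings are not scaled for the brightness of the array. The 75th percentile of an array was 371.1 and 378.1 in vehicle and 607.1 and 733.6 with the combination. With TP-16 it was 530.2 and 550.8, and with anti-PD-1 398 and 414.9. The difference between combination and vehicle was 4.06 on the log2 scale (standard error 0.96, 95% confidence interval 1.69 to 6.43, limma adjusted p of 0.0276), or 16.7-fold. The vehicle replicates differed by 3.09, so the size of this rise depended on which of them was used. Without vehicle replicate 1 it was 2.52 (limma adjusted p of 0.0241), and without vehicle replicate 2 it was 5.60 (limma adjusted p of 0.0103). By size of rise, Ifng ranked 15th among the 31912 tested probes.

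Some markers of the cells that make interferon gamma were called higher with the combination as well. The summed level of 10 T-cell genes was 3.14 and 4.38 in vehicle, 5.04 and 4.76 with TP-16, 5.05 and 4.72 with anti-PD-1, and 5.31 and 6.07 with the combination, all on the log2 scale. All 6 treated arrays lay above both vehicle arrays. Of the 10 genes, 9 were well above background on vehicle replicate 1 (Cd8a was not) and 10 on each other array. Between combination and vehicle 5 of the 10 T-cell genes were called higher and 0 lower, against 9.1% of all probes called higher. Of the 5, Cd2, an adhesion molecule of T cells, had a difference of 3.20 (limma adjusted p of 0.0139) and Cd3e, a chain of the T-cell receptor complex, 1.81 (limma adjusted p of 0.0273). Cd247, another chain of that complex, was 1.85 and 1.82 in vehicle and 1.39 and 1.75 with the combination and was not called (limma adjusted p of 0.193). The median difference of the 10 was 2.80. With normexp background correction 9 were called higher (3516 of all 31912 probes), with no filter on dim probes 2 (1207 of 56567), by the methods' t-test at its fold and unadjusted p 1 (772 of 31912), and with the compared groups only 0, as over all probes. Without vehicle replicate 2 the count was 8 (2496 of 31912 probes called higher), without either anti-PD-1 array 2 (1918), without combination replicate 1 also 2 (1613), and without combination replicate 2 it was 0, as over all probes. The summed level of 6 natural killer cell genes was 3.24 on vehicle replicate 1 and between 5.36 and 5.94 on the 7 other arrays, vehicle replicate 2 (5.38) included. Most of that sum was Gzma, which encodes granzyme A, lowest on vehicle replicate 1 and at 5.09 to 5.75 on the others, and the median difference of the 6 genes between combination and vehicle was 1.66. Of these 6, 2 were called higher with the combination, against 9.1% of all probes. With normexp background correction the count was 3 (3516 of 31912 probes) and with no filter on dim probes 0 (1207 of 56567). By the methods' t-test at its fold and unadjusted p it was 0 (772 of 31912). Leaving out vehicle replicate 2 raised the count, and leaving out vehicle replicate 1 or any array of a treated group lowered it. In whole-tumor RNA, fewer cells of a type and less RNA per cell cannot be told apart. The part of these cells in the result for Ifng was not tested.

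**Figure D1:**
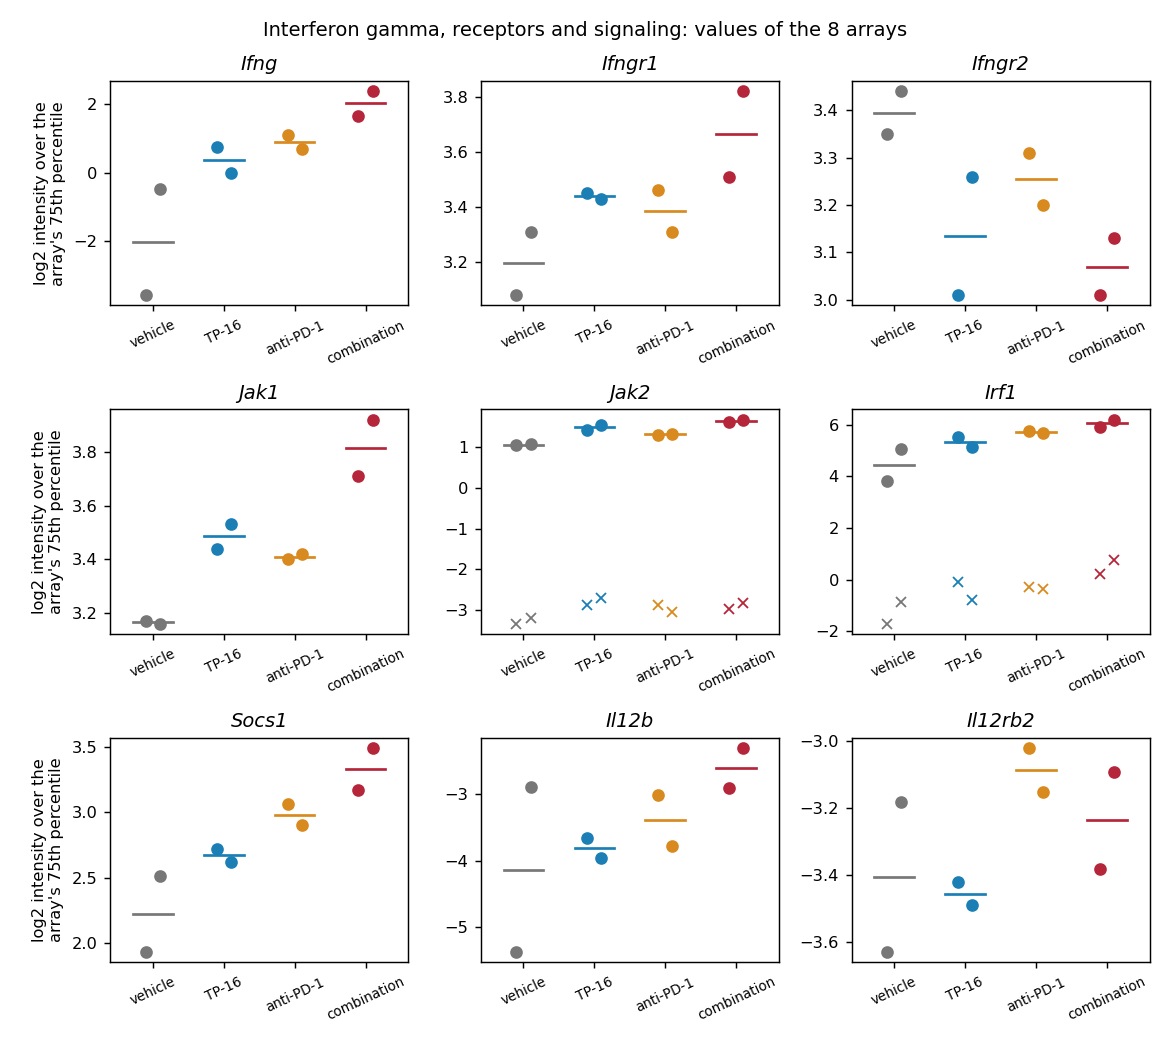
Log2 intensity over the array's 75th percentile (vertical axis, a separate range in each panel) of the 9 genes in the tumors of the 4 groups. Each dot is 1 array, each line the mean of 2 arrays, and crosses in the Jak2 and Irf1 panels are the dimmer probe. In 6 genes both combination arrays lie above the 6 others (Ifng, Ifngr1, Jak1, Jak2, Irf1, Socs1), as in 13% of all probes. Ifng spans 5.96 while Ifngr2 spans 0.44.

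The receptor chains varied little. Ifngr1, the ligand-binding chain (NM_010511, probe at chr10:19329923-19329982 in mm9), was 3.08 and 3.31 in vehicle, 3.45 and 3.43 with TP-16, 3.46 and 3.31 with anti-PD-1, and 3.51 and 3.82 with the combination. The combination arrays were the highest, and vehicle replicate 2 lay just below anti-PD-1 replicate 2, by less than the printed decimals show. The difference between combination and vehicle was 0.47 (standard error 0.15, limma adjusted p of 0.0626) and missed the threshold. It passed after quantile normalization (0.61, limma adjusted p of 0.0453), with the authors' log2 values, with normexp background correction, with trended and robust moderation and among probes above background on all arrays. Ifngr2, the chain that completes the receptor (NM_008338, probe at chr16:91563982-91564041), was 3.35 and 3.44 in vehicle, 3.01 and 3.26 with TP-16, 3.31 and 3.20 with anti-PD-1, and 3.01 and 3.13 with the combination. Vehicle was highest, and the 3 treated groups were not in a clear order, since TP-16 overlapped both of its neighbours. The difference between combination and vehicle was -0.33 (standard error 0.13, limma adjusted p of 0.107), and relative to the median of all probes it was -0.12.

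Both kinases were higher in the combination group by about the same small step. Jak1 (NM_146145, probe at chr4:100825094-100825153) was 3.17 and 3.16 in vehicle, 3.44 and 3.53 with TP-16, 3.40 and 3.42 with anti-PD-1, and 3.71 and 3.92 with the combination. No group overlapped another, in the order vehicle, anti-PD-1, TP-16, combination. The combination exceeded vehicle by 0.65 (standard error 0.12, limma adjusted p of 0.0138), or 1.57-fold. Jak2 (NM_008413) kept the same order without overlap at its brighter probe (chr19:29386381-29386440), with 1.05 and 1.07 in vehicle, 1.43 and 1.55 with TP-16, 1.31 and 1.34 with anti-PD-1, and 1.63 and 1.68 with the combination. There the combination exceeded vehicle by 0.59 (standard error 0.10, limma adjusted p of 0.013), or 1.51-fold. The dimmer Jak2 probe (chr19:29363211-29363270) was -3.34 and -3.21 in vehicle, -2.88 and -2.70 with TP-16, -2.88 and -3.06 with anti-PD-1, and -2.98 and -2.83 with the combination. At that probe the 3 treated groups overlapped, and the difference between combination and vehicle, 0.37, was not called (limma adjusted p of 0.0791).

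Irf1 and Socs1, genes that interferon gamma is known to induce, followed the order vehicle, TP-16, anti-PD-1, combination, with no overlap between neighbours at the probe of Socs1 and at the brighter probe of Irf1. Irf1, the transcription factor whose promoter window holds the GAS letters shown above (NM_008390, probe at chr11:53590746-53590805 in mm9), was 3.83 and 5.05 in vehicle, 5.53 and 5.14 with TP-16, 5.78 and 5.67 with anti-PD-1, and 5.93 and 6.20 with the combination. Vehicle replicate 1 stood lowest and the vehicle replicates were 1.21 apart. Irf1 rose by 1.62 under the combination (standard error 0.39, limma adjusted p of 0.029), or 3.08-fold, and by 1.02 (limma adjusted p of 0.0329) without vehicle replicate 1. The dimmer Irf1 probe, which lies at chr11:53587446-53587591, was -1.70 and -0.87 in vehicle, -0.07 and -0.77 with TP-16, -0.27 and -0.35 with anti-PD-1, and 0.22 and 0.77 with the combination, so that TP-16 and anti-PD-1 overlapped there. It rose by 1.78 under the combination (limma adjusted p of 0.0199). Socs1, the feedback inhibitor with the ISRE letters (NM_009896, probe at chr16:10783951-10784010), was 1.93 and 2.51 in vehicle, 2.72 and 2.62 with TP-16, 3.06 and 2.90 with anti-PD-1, and 3.17 and 3.49 with the combination. It rose by 1.11 under the combination (standard error 0.22, limma adjusted p of 0.0179), or 2.16-fold.

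The IL-12 genes were dim and were not called. Il12b, the subunit that IL-12 shares with IL-23 (NM_001303244, probe at chr11:44226781-44226840), was -5.37 and -2.90 in vehicle, -3.66 and -3.96 with TP-16, -3.01 and -3.78 with anti-PD-1, and -2.91 and -2.31 with the combination. Vehicle replicate 1 was not well above background, and vehicle replicate 2 lay above both TP-16 arrays and both anti-PD-1 arrays. The difference between combination and vehicle was 1.53 with a wide interval (-0.41 to 3.46, limma adjusted p of 0.182). It was 0.29 without vehicle replicate 1 and 2.76 (limma adjusted p of 0.025) without vehicle replicate 2. Il12rb2, the signaling chain of the IL-12 receptor (NM_008354, probe at chr6:67242256-67242315), was -3.63 and -3.18 in vehicle, -3.42 and -3.49 with TP-16, -3.02 and -3.15 with anti-PD-1, and -3.38 and -3.09 with the combination. Neighbouring groups overlapped throughout. Its difference between combination and vehicle, 0.17 (limma adjusted p of 0.517), had no settled direction, since it was 0.69 after quantile normalization (limma adjusted p of 0.0256), -0.29 with normexp background correction (limma adjusted p of 0.0467) and -0.06 without vehicle replicate 1.

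Between combination and vehicle, limma called 5 of the 9 genes at an adjusted p of at most 0.05 (Ifng, Jak1, Jak2, Irf1 and Socs1), all higher, where 32% of all probes were called, 9.1% higher and 22.9% lower. The median difference of the 9 was 0.65. Both combination arrays lay above the 6 others in 6 of the 9 genes, against 13% of all probes, and both vehicle arrays below the 6 others in 6 of the 9, against 8.2%. Before adjustment 7 of the 9 passed in limma, against 46.2% of all probes. With 2-fold or more and the limma p before adjustment, 3 genes passed (Ifng, Irf1 and Socs1), against 15.3% of all probes, whereas the methods' t-test at the same limits gave 0 of the 9, against 7.07%. Without combination replicate 2 limma called 0 of the 9 and 0 of all probes after adjustment. The differences of the 5 genes were then 3.70 for Ifng, 1.49 for Irf1, 0.95 for Socs1, 0.55 for Jak1 and 0.57 for Jak2. Without combination replicate 1, or without either anti-PD-1 array, Jak1, Jak2 and Socs1 were called, against 18.6% and 21.9% of all probes.

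**Figure D2:**
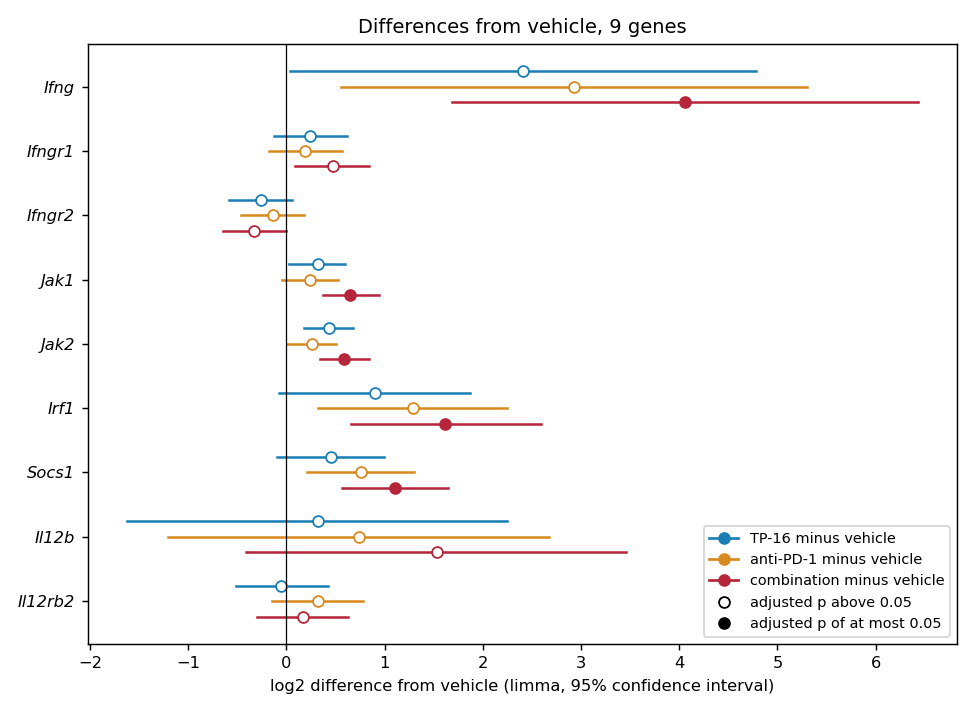
Log2 differences from vehicle (horizontal axis) for the 9 genes under each of the 3 treatments, with the 95% confidence interval of the limma fit. Filled dots have an adjusted p of at most 0.05. The 5 filled dots are all in the combination (Ifng 4.06, Irf1 1.62, Socs1 1.11, Jak1 0.65, Jak2 0.59).

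**Figure D3:**
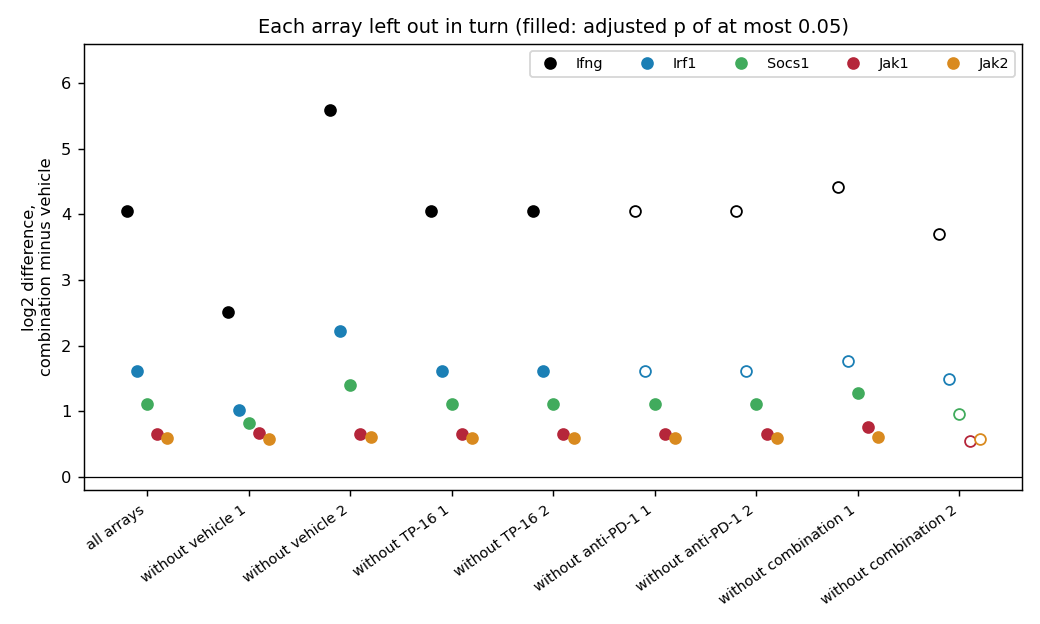
Log2 difference between combination and vehicle (vertical axis) of the 5 called genes with all arrays and with each array left out in turn (horizontal axis). Filled dots have a limma adjusted p of at most 0.05. All dots lie above 0, Ifng ranges from 2.52 to 5.60, and no dot is filled without combination replicate 2.

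Each single agent was compared with the same 2 vehicle arrays, so the comparisons share them. At a threshold of 0.05, limma called for TP-16 0 of the 9 genes after adjustment, against 0.0533% of all probes, and 3 before adjustment (Ifng, Jak1 and Jak2), against 25.9%. Ifng differed by 2.41 (interval 0.04 to 4.78, limma adjusted p of 0.188), Jak2 by 0.43 (limma adjusted p of 0.0941) and Jak1 by 0.32 (limma adjusted p of 0.163). For anti-PD-1 limma also called 0 of the 9, against 0.0721% of all probes, and 4 before adjustment (Ifng, Jak2, Irf1 and Socs1), against 14.5%. Ifng differed by 2.93 (interval 0.56 to 5.30, limma adjusted p of 0.302), Irf1 by 1.29 (limma adjusted p of 0.286) and Socs1 by 0.76 (limma adjusted p of 0.279). Both comparisons depended on which vehicle array was kept. Without vehicle replicate 1 the difference of Ifng was 0.87 for TP-16 (limma adjusted p of 0.282) and 1.38 for anti-PD-1 (limma adjusted p of 0.216), and that of Irf1 0.68 for anti-PD-1 (limma adjusted p of 0.22). Without vehicle replicate 2 Ifng passed for TP-16 (3.96, limma adjusted p of 0.0399), and Ifng (4.47, limma adjusted p of 0.0317) and Irf1 (1.89, limma adjusted p of 0.0444) passed for anti-PD-1. With 2-fold or more and the limma p before adjustment, Ifng passed for TP-16 (6.18% of all probes) and Ifng and Irf1 for anti-PD-1 (3.83%), and by the methods' t-test 0 of the 9 passed in either (1.65% and 0.949% of all probes). Jak1 and Jak2 were called for TP-16 with normexp background correction, which called 18.6% of all probes there.

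The combination was then set against each single agent. Limma called 0 of the 9 genes against TP-16 after adjustment (0% of all probes) and 2 before adjustment (Jak1 and Socs1), near the 22.3% of all probes. Against anti-PD-1 it called 0 of the 9 after adjustment (0.0157% of all probes) and 2 before adjustment (Jak1 and Jak2), where 26.2% of all probes passed. Ifng was 1.65 higher with the combination than with TP-16 (interval -0.73 to 4.02) and 1.13 higher than with anti-PD-1 (interval -1.24 to 3.50). Jak1 was 0.34 higher than with TP-16 (interval 0.05 to 0.62, limma adjusted p of 0.177) and 0.41 higher than with anti-PD-1 (interval 0.13 to 0.69, limma adjusted p of 0.108). With normexp background correction, Jak1, Jak2 and Il12rb2 passed against anti-PD-1, the last of them lower with the combination, where that setting called 22.2% of all probes. Between anti-PD-1 and TP-16, limma called 0 of the 9 after adjustment (0.0188% of all probes) and 0 before adjustment (8.71%), with Ifng 0.51 higher with anti-PD-1 (interval -1.86 to 2.89). The departure from additivity, that is, the combined difference from vehicle minus the sum of both single differences, was called for 0 of the 9 after adjustment (0% of all probes) and for 0 before adjustment (7.32%). For Ifng it was -1.28 (interval -4.64 to 2.07), and for Irf1 -0.56 (interval -1.93 to 0.81).

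Genes with a pattern like that of Ifng were sought among 21607 other genes, by the root mean square difference between centred values over the 8 arrays. The nearest were Gbp8 (0.25), Gbp6 (0.27), Gm12250 (0.28), Calhm6 (0.29) and Serpina3g (0.31), all on the log2 scale. Gbp8 was -3.08 and -0.59 in vehicle, 0.80 and -0.09 with TP-16, 0.82 and 0.42 with anti-PD-1, and 1.80 and 2.08 with the combination. These 5 were chosen for values near those of Ifng. That they too were lowest on vehicle replicate 1 and highest on combination replicate 2 is therefore no separate result. By this measure, which counts the size of a change as well as its shape, the other members were farther from Ifng. Their distances ran from 1.01 for Irf1 and 1.02 for Il12b to 1.79 for Ifngr2. Irf1 spanned 2.37 over the 8 arrays and Ifng 5.96. The distance does not show whether a member followed the same order of arrays at a smaller scale.

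**Figure D4:**
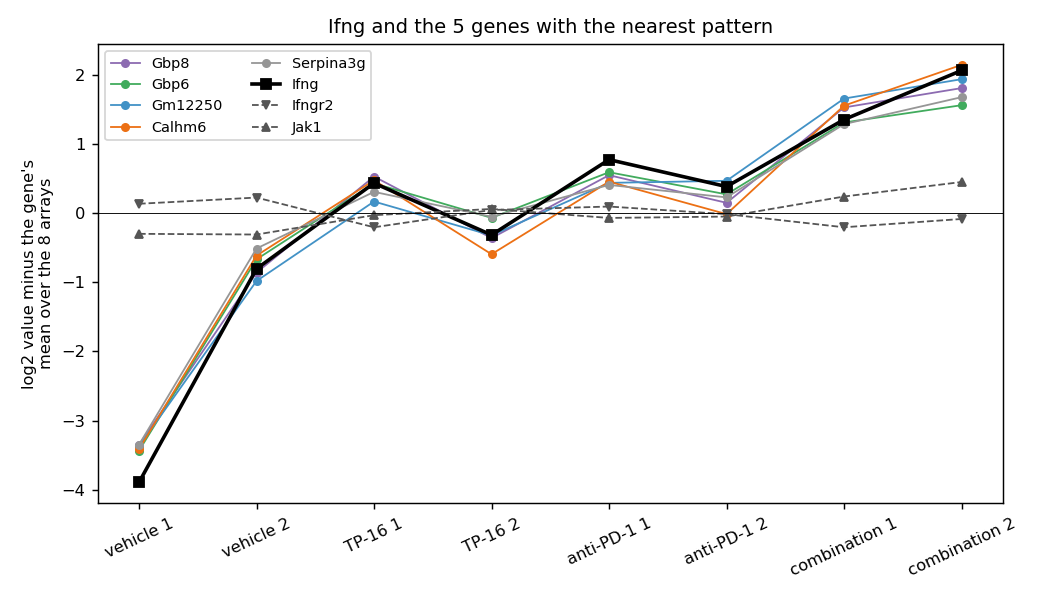
Log2 value minus the mean of the gene over the 8 arrays (vertical axis), by array (horizontal axis), for Ifng, the 5 nearest genes and, for contrast, Ifngr2 and Jak1. Lines join the values of a gene and carry no order. Ifng and the 5 genes, which were chosen for this nearness, run from vehicle replicate 1, the lowest, to combination replicate 2, the highest. Ifngr2 and Jak1 stay near 0.

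Further along the pathway, most genes known to respond to interferon gamma rose with the combination. All 24 targets on the list were tested. Between combination and vehicle 17 were called higher and 2 lower, with a median difference of 2.21, against 9.1% of all probes called higher and 22.9% lower and a median of -0.20. Ciita, the master regulator of MHC class II genes, rose from -2.45 and 0.41 in vehicle to 3.54 and 4.11, by 4.84 (standard error 0.91, limma adjusted p of 0.0157), or by 3.42 without vehicle replicate 1 and 6.27 without vehicle replicate 2. The chemokine gene Ccl5 rose by 4.05 (limma adjusted p of 0.0102), from 1.78 and 2.50 to 5.83 and 6.55. Ido1, an enzyme that breaks down tryptophan, rose by 4.01 (limma adjusted p of 0.0333), from -3.63 and -0.19 to 2.40 and 1.80. With 1 array left out the rise of Ido1 ranged from 2.29 to 5.73. Its call depended on the arrays kept and was lost with no filter on dim probes. Cxcl11, a ligand of the chemokine receptor CXCR3, fell by 0.73 (limma adjusted p of 0.0395), but by 0.11 after quantile normalization, where it was not called (limma adjusted p of 0.705). B2m, the light chain of MHC class I, fell by 0.48 (limma adjusted p of 0.0427), but was higher by 0.36 after quantile normalization (limma adjusted p of 0.0497). Neither Cxcl11 nor B2m was called without vehicle replicate 1 or without vehicle replicate 2. For the single agents limma called 0 of the 24, with median differences of 1.21 for TP-16 (0.0533% of all probes called) and 1.55 for anti-PD-1 (0.0721%). Of the 24 targets 17 had a promoter window, and 12 of these 17 held one of the element letters, against 11.3% of all windows.

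Transcripts of proteins that carry or damp the signal rose in part. Of 14 genes of signal transduction, 8 were called higher with the combination and 1 lower, with a median difference of 0.83, where 9.1% of all probes were called higher and 22.9% lower. Stat2, a transcription factor of type I interferon signaling, rose by 1.83 (limma adjusted p of 0.0126), and Irf8, a transcription factor of myeloid cells, by 1.46 (limma adjusted p of 0.0411). Socs2, a relative of Socs1, fell by 0.77 (limma adjusted p of 0.0144). Of the 4 phosphatase genes on the list, Ptpn6 rose by 1.20 (limma adjusted p of 0.045), while Ptpn1 (0.47), Ptpn11 (0.16) and Ptpn2 (-0.23) were not called. The call of Ptpn6 depended on the arrays kept and was lost with no filter on dim probes.

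The IL-12 and IL-18 arm, which drives interferon gamma production, held 18 genes, of which Il12a and Il23a did not pass the filter. Of the 16 tested, 8 were called higher with the combination and 1 lower, with a median difference of 1.06, against the same shares of all probes. Il18bp, a soluble antagonist of IL-18 that interferon gamma is known to induce, rose by 3.43 (limma adjusted p of 0.0203), from -0.83 and 1.5 to 3.43 and 4.10. Tbx21, which encodes the T-helper 1 transcription factor T-bet, rose by 2.90 (limma adjusted p of 0.0304), and Il18r1, a chain of the IL-18 receptor, by 2.76 (limma adjusted p of 0.0167). The T-cell cytokine gene Il21 was well above background on 6 of the 8 arrays, but not on combination replicate 1 or anti-PD-1 replicate 1. It fell by 0.99 (limma adjusted p of 0.0107), but by 0.17 after quantile normalization, where it was not called (limma adjusted p of 0.652). Without vehicle replicate 1 other rises were smaller as well, at 1.90 for Il18r1, 2.29 for Ido1, 2.27 for Il18bp, 1.86 for Tbx21 and 0.93 for Irf8. The calls of Tbx21 and Irf8 depended on the arrays kept and were lost with no filter on dim probes. Without combination replicate 2 the genes called higher numbered 0 in each of the 3 lists, as over all probes, and without combination replicate 1 they numbered 5 of the targets, 3 of signal transduction and 4 of the IL-12 and IL-18 arm, beside 1613 of 31912 probes. With no filter on dim probes 7 targets, 3 genes of signal transduction and 4 of the arm were called higher, beside 1207 of 56567 probes. The methods' t-test at its fold and unadjusted p gave 3, 1 and 1, beside 772 of 31912, and a limma fit of the compared groups only gave 0 in each list, as over all probes. Normexp background correction gave 22, 11 and 10, beside 3516 of 31912 probes called higher, and quantile normalization 20, 11 and 8, beside 4018. Without any 1 of the 4 single-agent arrays 8 targets and 4 genes of signal transduction were called higher (2260 of 31912 probes without a TP-16 array, 1918 without an anti-PD-1 array), and without vehicle replicate 1 also 4 of signal transduction (2174).

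**Figure D5:**
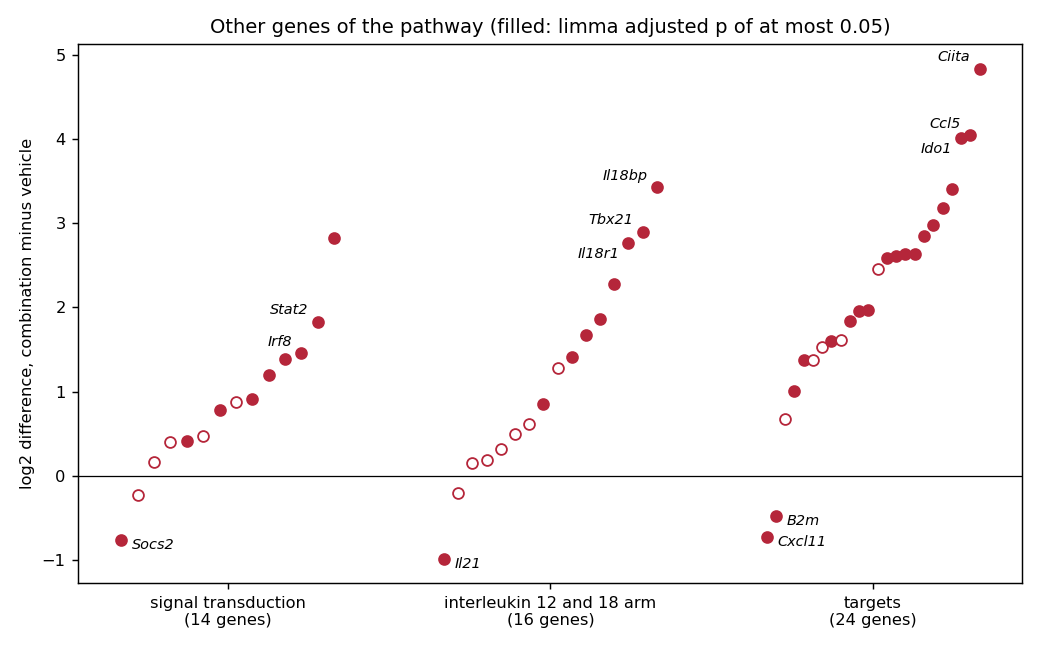
Log2 difference between combination and vehicle (vertical axis) for each tested gene of the 3 lists, sorted by size within a list. Filled dots have a limma adjusted p of at most 0.05, and labels mark genes named in the text. Most targets lie above 0, up to 4.84 for Ciita (3.42 without vehicle replicate 1), and B2m and Cxcl11 lie below it (B2m above it, at 0.36, after quantile normalization).

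Summed levels of markers of other cell types are given here for vehicle and combination, without a test on the sums. The summed level of 8 macrophage genes was 7.06 and 7.36 in vehicle and 7.77 and 8.29 with the combination, and that of 8 dendritic cell genes 2.32 and 2.39 against 3.04 and 3.52. Of these, 5 macrophage genes were called higher and 1 lower, and 6 dendritic cell genes higher and 0 lower, against 9.1% of all probes higher and 22.9% lower. Of those 6, Clec9a and Zbtb46 were well above background on only 6 of the 8 arrays, and each vehicle array had 5 of the 8 dendritic cell genes above it. The sum of 3 red blood cell genes was 8.74 and 8.13 in vehicle and 5.98 and 6.32 with the combination. The sum of 6 neutrophil genes, mostly Csf3r, S100a9 and S100a8, was 6.86 and 6.73 against 6.12 and 5.79. Of these, S100a9 and S100a8 were called lower (limma adjusted p of 0.0195 and 0.0177), Csf3r was not called, and Mmp8, which encodes a collagenase of neutrophils, was called higher by 0.80 (limma adjusted p of 0.0366). Sums of the 7 fibroblast genes were 8.13 and 7.91 against 8.85 and 8.92. The skin sum reached 5.07 and 5.12 on TP-16 replicate 2 and anti-PD-1 replicate 2, against 1.08 to 2.49 on the 6 other arrays. The skeletal muscle sums of the combination overlapped those of vehicle. So did the epithelial sums, which were mostly Krt20 (difference of 0.00). Of 6 epithelial genes tested 2 were called lower and 0 higher, with a median difference of -1.06. The keratin gene Krt18 fell by 1.39 (limma adjusted p of 0.0196), while Krt8 differed by -2.68 (limma adjusted p of 0.0525). The other call was Cdx2, an intestinal transcription factor gene well above background on only 4 arrays, so the size of its fall is uncertain. It was -2.17 and -1.80 in vehicle and -5.37 and -5.38 with the combination. Cdh1 went the other way, from -3.79 and -3.04 to -2.74 and -2.44, and was not called. The part of these cell types in the results for the 9 genes was not tested.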

How the data were processed

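Total RNA of 8 CT26 tumor samples was labelled with Cy3 and measured on mouse SurePrint G3 arrays from Agilent. The authors deposited scanner intensities, background-subtracted and detrended by Feature Extraction 10.7.1.1 per the file headers, and a table of log2 values normalized in GeneSpring, by a method not given in the sources used here (median 5.166 to 5.167 on each array). Control spots and 38 probes with outlier marks were left out, spots of a probe averaged, and log2 intensities taken minus the 75th percentile of the array. A probe was tested where some group had it well above background on its 2 arrays. A gene with several probes is counted by its brightest. Groups came from the sample labels, and replicate numbers were not taken to pair samples in the main fit.

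All arrays entered 1 limma 3.58.1 fit (R 4.3.3) without a block, with 4 residual degrees of freedom and Benjamini-Hochberg adjustment over 31912 probes, for 7 comparisons. P-values measure the spread between these samples. Members, gene lists and tests were chosen with earlier results of these data known. Genes named from the 3 pathway lists are the 3 largest called rises and falls in the combination, of which 1 is not reported here; the other markers, Ptpn2 and Ptpn11 were chosen after their values were seen. Summed levels are log2 of the summed linear values of the tested genes of a list. On simulated data with 200 changed probes, 81% were found for the combination, with 14 false calls. The changes put in were larger than those of Irf1, Socs1, Jak1 and Jak2, and the simulated spread was equal in all groups. These figures therefore do not carry over to such genes or to the wider spread of vehicle. Alternatives were quantile and median scaling, normexp (offset 50), other filters, 1 probe per gene, a replicate block, the authors' values, other moderation, the compared groups only, the methods' t-test, other thresholds and leaving out each array. Promoter windows are from RefSeq. Probe positions come from the scanner files, in mm9, and no exon or UTR annotation of that build was used here.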

Additional observations from a re-analysis of the deposited data

How the results depend on the processing

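Of the 9 genes, those called for the combination (5) changed in number as follows. Quantile normalization and the authors' log2 values gave 7, with Ifngr1 and Il12rb2 added, and the median scaling, 1 probe per gene and the replicate block gave the same 5 genes. No filter on dim probes left 3 (Jak1, Jak2 and Socs1). A fit of the compared groups only gave 0 (5 before adjustment). The methods' t-test gave 0 at its fold and unadjusted p and 0 after Benjamini-Hochberg (2 before adjustment). Requiring 2-fold or more in limma gave 3 after adjustment (12.5% of all probes) and 3 before it, where TP-16 had 1 and anti-PD-1 had 2. Normexp background correction gave 7 (Il12rb2 lower), trended and robust moderation 6 and only probes above background on all arrays 6. Normexp also gave 2 for TP-16 and 3 for the combination against anti-PD-1, and trended moderation 1 in each of these. With an array left out, calls ranged from 0 to 6 (combination), 0 to 1 (TP-16) and 0 to 2 (anti-PD-1), and were 0 in the other comparisons. The correlation of replicate deviations between groups ran from -0.193 to 0.29, which cannot settle whether the replicate numbers pair samples. The replicate block changed no call among the 9 genes, ended those of Irf8 (limma adjusted p of 0.0601), B2m (0.0668), Ptpn6, Cxcl9, Gbp2, Nlrc5, Fcgr1 and Cd8a among the pathway and T-cell lists (targets called higher fell from 17 to 13, signal transduction from 8 to 6), left 0 natural killer genes called, and lowered calls over all probes for the combination from 10217 to 8700. Over all probes that number was 16715 with normexp, 5736 with no filter on dim probes, 5943 without combination replicate 1 and 0 without combination replicate 2, with the compared groups only and with the methods' t-test after adjustment. For TP-16 it was 17, against 5945 with normexp, 1301 with trended moderation and 155 with quantile normalization, and for the combination against anti-PD-1 5, against 7096, 2736 and 10. Higher calls made up 28.4% of all calls for the combination and 49.6% after quantile normalization. In TP-16 they made up 5.88% and 63.2%, in anti-PD-1 39.1% and 77.8%. Quantile normalization moved the median of all probes from -0.20 to -0.013 for the combination.

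Directions turned as follows; the cause was not tested. Il12rb2 in TP-16 was 0.55 with quantile normalization and the authors' values, and in the combination -0.29 with normexp. The departure of Il12b was -0.02 with quantile normalization and the authors' values, and Il12b in TP-16 was -0.27 with normexp. B2m in the combination was 0.36 with quantile normalization and 0.37 with the authors' values. With 1 array left out, differences ranged from -0.92 to 1.55 (Il12b, TP-16), from -0.50 to 1.97 (Il12b, anti-PD-1), from -0.28 to 0.18 (Il12rb2, TP-16), from -0.06 to 0.40 (Il12rb2, combination), from -0.01 to 0.24 (Ifngr2, anti-PD-1 minus TP-16), from -0.19 to 0.06 (Ifngr2, combination minus TP-16) and from -0.13 to 0.03 (Ifngr1, anti-PD-1 minus TP-16). The departures from additivity ranged from -2.83 to 0.26 (Ifng), -0.12 to 0.19 (Ifngr1), -0.05 to 0.20 (Ifngr2), -0.01 to 0.20 (Jak1), -1.17 to 0.04 (Irf1), -0.38 to 0.20 (Socs1), -0.76 to 1.70 (Il12b) and -0.33 to 0.13 (Il12rb2). The alternatives for the gene lists were chosen after seeing the data. With 2 arrays a group, precision is limited by their number, and Il12b lay near background. No block for slide or scan could be fitted, because all arrays share both.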
